A study of Mus musculus with 6 samples.

Results

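The receptors that tune insulin secretion were followed in pancreatic islets of mice in which β cells lacked Sel1L, an adaptor of the ubiquitin ligase complex that clears misfolded proteins from the endoplasmic reticulum. The set was defined by gene symbol, with earlier results of these data known. It holds 10 genes, of which 8 carried a probe set with that single symbol and were analysed among 22180 genes. These were the incretin receptor genes Glp1r and Gipr, the glucagon receptor gene Gcgr, the lipid receptor genes Ffar1 and Gpr119, the muscarinic receptor gene Chrm3, the purinergic receptor gene P2ry1 and the galanin receptor gene Galr1. The adrenergic receptor gene Adra2a and the prolactin receptor gene Prlr were not analysed here.

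Affymetrix arrays were hybridised with islet RNA from 3 Sel1L-deficient and 3 wildtype samples, all from C57BL/6J mice aged 5 weeks. The Sel1L-deficient mice carried floxed Sel1L alleles and the Ins1Cre allele, a Cre recombinase gene placed at the Ins1 gene, so deletion was directed to β cells. The mice called wildtype were Sel1L f/f littermates, so both groups carried the floxed alleles, and the effect of Cre without floxed alleles was not analysed here. Islets also hold α, δ and other cells that do not use the Ins1 gene, and all islets spent a night in culture before RNA extraction.

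In the β cell, hormones, nerves and nutrients adjust how much insulin glucose releases. Receptors coupled to the G protein Gs raise cyclic AMP, those coupled to Gq activate phospholipase C and release calcium from internal stores, and those coupled to Gi or Go restrain release. The prolactin receptor belongs to another family and signals through the kinase JAK2 and the transcription factor STAT5.

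Values are log2 RMA values as deposited, on which a difference of 1 is a doubling in array signal before any compression. Sel1l itself read 7.73, 7.65 and 7.68 on the Sel1L-deficient arrays and 8.46, 8.56 and 8.76 on the wildtype arrays. It fell by 0.90 ± 0.11 (SE; limma, Benjamini-Hochberg adjusted p = 0.0312), and did not pass the threshold of 0.05 once any 1 array was left out, nor with the replicate number as a block (limma, adjusted p = 0.0559). All samples are labelled female, but Xist was low on replicate 3 of each genotype (3.08 in Sel1L-deficient and 2.93 in wildtype islets), against 9.93 to 10.4 on the other 4 arrays, and Y-linked transcripts were high there. Receptor differences are therefore also given on those 4 arrays. Array medians lay between 3.08 and 3.16. Marker genes of β cells, 9 of them measured, went with the genotype. Of these, 4 fell and 0 rose, where 0.153% of all genes fell and 0.0902% rose. The 2 genotypes did not overlap for any of the 9, with wildtype on top, where 7.84% of all genes were lower without overlap. The 9 differences were uneven, from -2.11 to -0.07 with a median of -0.66. With any 1 array left out, 1 to 3 of the 9 markers passed, and 0 on the 4 arrays without replicate 3.

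Of the 8 receptors, 4 had each Sel1L-deficient value below each wildtype value, and 0 had the reverse. Over all genes, 7.84% were lower and 7.22% higher without overlap, 15.1% in all. None of the 8 passed an adjusted p of 0.05 over all genes (0 rose and 0 fell), where 0.243% of genes were called, 0.0902% higher and 0.153% lower in Sel1L-deficient islets. At an unadjusted p under 0.05 the count was 4 of the 8 receptors, against 9.48% of all genes. In whole islets, fewer β cells and less receptor RNA per β cell cannot be told apart. The 4 receptors were P2ry1, Ffar1, Chrm3 and Gipr. The first 3 are the Gq-linked members, while Gipr was 1 of 4 linked to Gs. This grouping was made after the values had been seen and was not tested.

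**Figure D1:**
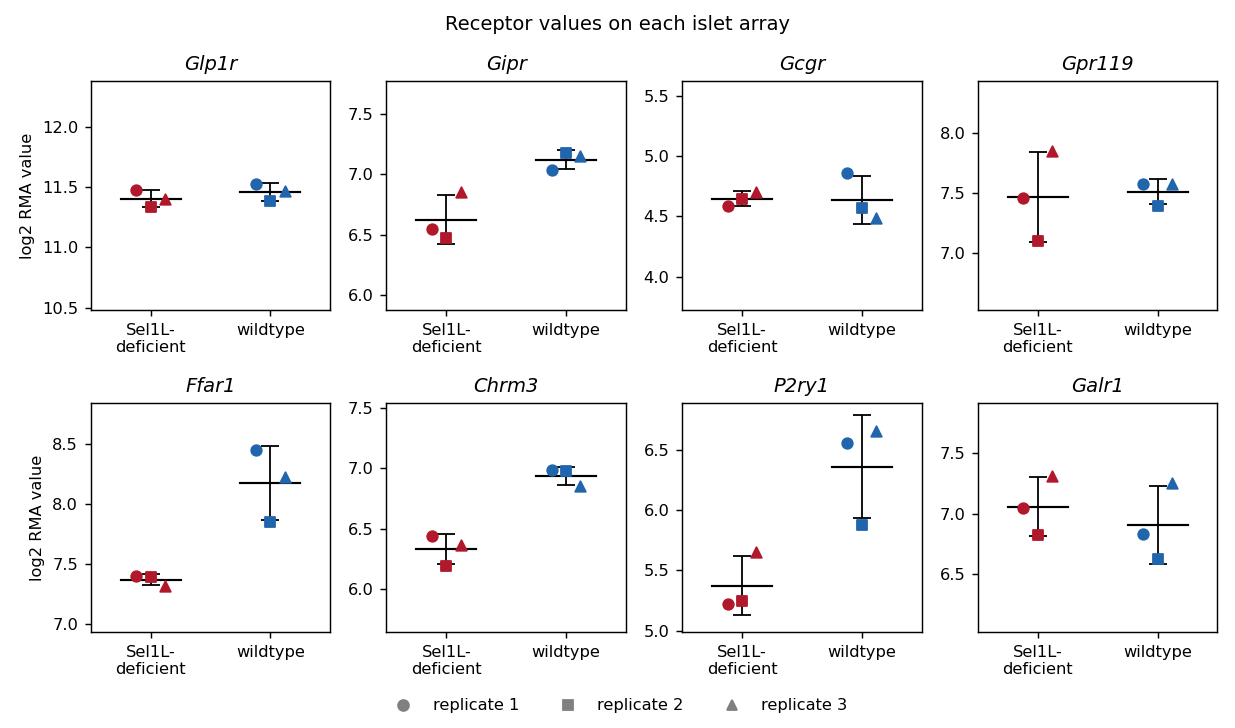
Log2 RMA value (vertical axis, the same span of log2 units in each panel) of each receptor on each array, Sel1L-deficient left of wildtype. Symbols mark the replicate, the long bar the mean and the error bar the SD over 3 arrays. The groups are separate for Gipr, Ffar1, Chrm3 and P2ry1 and overlap for Glp1r, Gcgr, Gpr119 and Galr1.

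The receptors for ADP, free fatty acids and acetylcholine were lower in Sel1L-deficient islets by 0.60 to 0.99 on the log2 scale, and none of the 3 passed the threshold. P2ry1 encodes a receptor for ADP, which is formed from the ATP released with insulin. Its probe set read 5.22, 5.25 and 5.65 in Sel1L-deficient islets and 6.56, 5.87 and 6.66 in wildtype islets. The highest Sel1L-deficient value and the lowest wildtype value, that of replicate 2, were 0.22 apart. The means were 5.37 ± 0.24 in Sel1L-deficient islets and 6.36 ± 0.43 in wildtype islets (SD, n = 3 each), a 1.98-fold lower signal. The difference was -0.99 ± 0.22 (SE, 95% interval -1.49 to -0.49; limma, adjusted p = 0.191). P2ry1 had the widest wildtype spread of the 8 receptors.

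Ffar1 encodes the receptor for long-chain fatty acids that amplifies glucose-stimulated insulin release. It read 7.40, 7.39 and 7.32 in Sel1L-deficient islets and 8.45, 7.85 and 8.22 in wildtype islets. The Sel1L-deficient arrays lay within 0.08 of each other, the wildtype arrays within 0.60, and the gap between the groups was 0.44. The difference was -0.80 ± 0.15 (SE, 95% interval -1.15 to -0.45; limma, adjusted p = 0.142), a 1.74-fold lower signal in Sel1L-deficient islets.

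Chrm3 encodes the muscarinic receptor through which acetylcholine from nerve endings augments insulin release. Its values were 6.44, 6.19 and 6.37 in Sel1L-deficient islets and 6.99, 6.98 and 6.85 in wildtype islets. The groups were 0.41 apart, more than the range within either. The difference was -0.60 ± 0.11 (SE, 95% interval -0.86 to -0.35; limma, adjusted p = 0.119), a 1.52-fold lower signal. In size, 98.0% of the other genes within the same unit of mean log2 value differed by less than Chrm3, 99.0% by less than Ffar1 and 99.3% by less than P2ry1.

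With a variance prior that follows brightness and is robust to outlying genes, Ffar1 and Chrm3 passed the threshold, at limma adjusted p = 0.026 and 0.0294. That setting called 133 genes, 0.600% of those tested. P2ry1 and Gipr did not pass with it (0.064 and 0.103). Over all 15 alternative settings the adjusted p ran from 0.026 to 0.447 for Ffar1, from 0.0294 to 0.345 for Chrm3 and from 0.064 to 0.448 for P2ry1. On the 4 arrays without replicate 3 of either genotype the differences were -0.75 for Ffar1, -0.67 for Chrm3 and -0.98 for P2ry1.

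**Figure D2:**
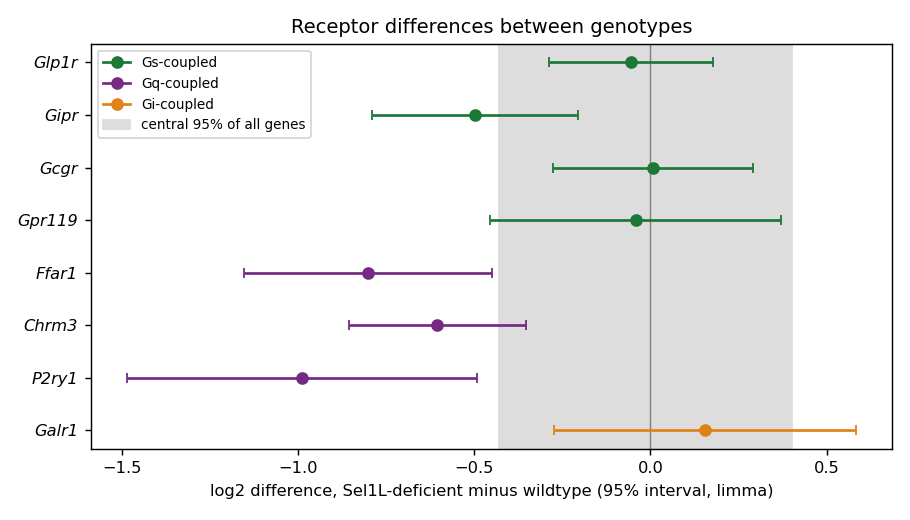
Log2 difference, Sel1L-deficient minus wildtype, of the 8 receptors (horizontal axis) with 95% intervals from limma, coloured by the G protein each mainly couples to. The grey band holds the central 95% of all genes, from -0.43 to 0.40. P2ry1, Ffar1, Chrm3 and Gipr lie left of the band and the other 4 within it.

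Windows around the annotated starts of these 3 genes are shown because the genes were lower together, beside that of Glp1r, whose groups overlapped. They are RefSeq sequence of build GRCm38.p6 from 250 bases before to 50 bases after the annotated start, printed along the gene's own strand. The windows are chr3:61002535-61002834 (+ strand) for P2ry1, chr7:30861421-30861720 (- strand) for Ffar1, chr13:10360754-10361053 (- strand) for Chrm3 and chr17:30901617-30901916 (+ strand) for Glp1r. Capitals mark matches to 5 motifs, searched on both strands and chosen after the values had been seen: the cyclic AMP response element core TGACG, the MAF recognition core TGCTGAC, the homeodomain site TAATTA, the E-box CAGATG and the GC box GGGCGG.
P2ry1: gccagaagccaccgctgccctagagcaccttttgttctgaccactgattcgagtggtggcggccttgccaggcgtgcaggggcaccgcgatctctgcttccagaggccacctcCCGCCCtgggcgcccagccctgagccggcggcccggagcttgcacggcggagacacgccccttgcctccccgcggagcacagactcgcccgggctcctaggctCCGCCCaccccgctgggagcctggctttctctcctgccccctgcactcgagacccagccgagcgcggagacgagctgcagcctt
Ffar1: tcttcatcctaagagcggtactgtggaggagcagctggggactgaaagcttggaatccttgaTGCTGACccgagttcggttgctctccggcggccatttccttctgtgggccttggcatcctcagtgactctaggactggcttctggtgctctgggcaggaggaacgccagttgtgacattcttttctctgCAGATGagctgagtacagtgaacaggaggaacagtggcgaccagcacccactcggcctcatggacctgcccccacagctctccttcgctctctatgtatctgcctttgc
Chrm3: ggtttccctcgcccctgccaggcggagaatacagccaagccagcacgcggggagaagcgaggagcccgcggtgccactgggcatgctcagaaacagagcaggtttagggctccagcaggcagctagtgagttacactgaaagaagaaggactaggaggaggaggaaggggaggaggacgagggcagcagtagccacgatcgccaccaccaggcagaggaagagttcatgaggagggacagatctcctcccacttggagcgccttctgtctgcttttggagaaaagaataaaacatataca
Glp1r: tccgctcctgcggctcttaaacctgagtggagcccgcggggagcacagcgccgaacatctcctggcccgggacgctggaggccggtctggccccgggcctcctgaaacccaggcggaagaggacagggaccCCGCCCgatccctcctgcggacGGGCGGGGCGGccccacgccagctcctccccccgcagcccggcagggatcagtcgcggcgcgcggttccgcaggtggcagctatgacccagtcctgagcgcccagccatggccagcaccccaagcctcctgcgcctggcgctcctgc
The P2ry1 window held 2 GC boxes, starting 137 and 34 bases before the start, and the Glp1r window 3. GC boxes are found in 35.7% of the 32851 windows of that length. The Ffar1 window held the MAF core, 188 bases before the start, a match present in 4.67% of windows. It also held the E-box 59 bases before the start (17.2% of windows). In the Ffar1 window the letters from the annotated start on begin with ATG, as a coding sequence does. That start may thus be the start of translation, and whether the window is the promoter was not tested. The Chrm3 window held 0 matches to the 5 motifs. The core TGACG (20.8% of windows) and TAATTA (5.29%) were in 0 of these 4 windows. G and C made up 70.7% of the P2ry1 window, 56.3% of that of Ffar1, 57.3% of that of Chrm3 and 73.7% of that of Glp1r. Windows were matched for 6 of the 8 receptors, and not for Gipr, which was also lower without overlap, or Galr1. Among those not shown, the Gpr119 window held TGACG, 168 bases before the start, and the Gcgr window held 2 GC boxes. A match here describes letters only.

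Among the receptors that raise cyclic AMP, that for GIP was lower, without passing the threshold, and those for GLP-1, glucagon and oleoylethanolamide overlapped between genotypes. Gipr encodes the receptor for the gut hormone GIP. It read 6.55, 6.47 and 6.86 in Sel1L-deficient islets and 7.03, 7.18 and 7.15 in wildtype islets. All Sel1L-deficient values lay below all wildtype values, with 0.17 between the groups, and Sel1L-deficient replicate 3 was the closest to wildtype. The difference was -0.50 ± 0.13 (SE, 95% interval -0.79 to -0.20; limma, adjusted p = 0.26), a 1.41-fold lower signal in Sel1L-deficient islets. It was -0.60 on the 4 arrays without replicate 3.

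Glp1r encodes the receptor for GLP-1, the target of the incretin drugs. Its values were 11.48, 11.33 and 11.40 in Sel1L-deficient islets and 11.53, 11.38 and 11.47 in wildtype islets. The groups overlapped, and replicate 2 was the lowest in both. The difference was -0.06 ± 0.10 (SE, 95% interval -0.29 to 0.18; limma, adjusted p = 0.913), and -0.05 on the 4 arrays without replicate 3. Its probe set was brighter than those of 99.9% of genes.

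Gcgr encodes the glucagon receptor, by which α cells act on their neighbours. It read 4.59, 4.65 and 4.71 in Sel1L-deficient islets and 4.86, 4.57 and 4.48 in wildtype islets. The Sel1L-deficient values fell inside the wildtype range. The difference was 0.01 ± 0.12 (SE, 95% interval -0.28 to 0.29; limma, adjusted p = 0.992), and its sign turned under 5 of 15 alternative settings. Some of these 15, such as the replicate block, cannot change the difference.

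Gpr119 encodes a receptor for lipid amides such as oleoylethanolamide. It read 7.45, 7.11 and 7.85 in Sel1L-deficient islets and 7.57, 7.39 and 7.57 in wildtype islets. Sel1L-deficient replicates 2 and 3 held the lowest and the highest value of all 6 arrays, so the SD was 0.37 in Sel1L-deficient and 0.10 in wildtype islets. The difference was -0.04 ± 0.18 (SE, 95% interval -0.45 to 0.37; limma, adjusted p = 0.971). It was -0.20 on the 4 arrays without replicate 3 and 0.14 without Sel1L-deficient replicate 2.

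Galr1 was the 1 measured receptor of the inhibitory kind. It encodes a receptor for galanin, a neuropeptide that restrains insulin release. Its values were 7.05, 6.82 and 7.31 in Sel1L-deficient islets and 6.83, 6.62 and 7.26 in wildtype islets. The groups overlapped, and within each genotype replicate 2 was lowest and replicate 3 highest. The difference was 0.16 ± 0.19 (SE, 95% interval -0.27 to 0.58; limma, adjusted p = 0.861), and 0.21 on the 4 arrays without replicate 3. Left without wildtype replicate 2 it was 0.02, and without wildtype replicate 3 it was 0.33.

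Summed β-cell marker levels, as log2 of the summed linear values of the 9 genes, ran from 13.12 to 13.17 in Sel1L-deficient islets and from 13.52 to 13.72 in wildtype islets. The sums of 4 other lists also differed without overlap, narrowly for the α-cell and duct markers. Endothelial markers, 10 of 10 higher, summed to 10.74 to 10.93 in Sel1L-deficient islets and 10.17 to 10.54 in wildtype islets. Mesenchymal markers, also 10 of 10 higher, summed to 9.24 to 9.43 in Sel1L-deficient islets and 8.60 to 9.08 in wildtype islets. Their defining genes lay above the array medians, except Lum and Pdgfra. α-cell markers, 5 of 5 higher, summed to 13.30 to 13.37 in Sel1L-deficient islets and 13.22 to 13.26 in wildtype islets. The brightest of them, Gcg and Ttr (means of 12.6 and 11.8), weigh most in this sum, and each overlapped between genotypes. The duct markers, 4 of 6 lower, summed to 9.20 to 9.35 in Sel1L-deficient islets and 9.36 to 9.49 in wildtype islets, with Cftr below the medians. None of these 4 lists had a member past the threshold (0 rose and 0 fell). Sums overlapped between genotypes for δ, PP and ε cells, leukocytes, acinar cells and Schwann cells. Acinar markers were 5 of 5 lower, with a median of -0.75, and none passed the threshold. Their sum was highest on replicate 3, at 12.82 in Sel1L-deficient and 12.94 in wildtype islets, against 10.90 to 12.20 on the other arrays. The fits without replicate 3 therefore leave out these arrays too. The part of these cell types in the receptor differences was not tested.

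**Figure D3:**
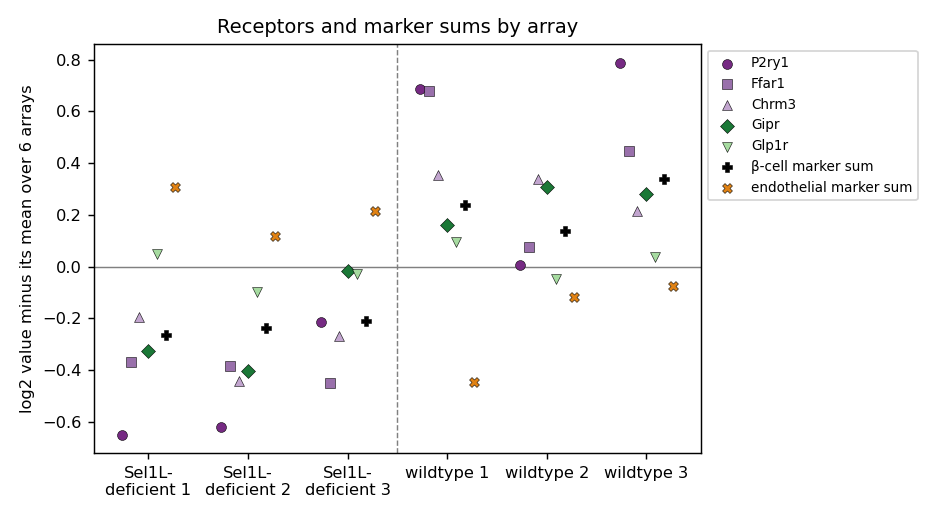
Log2 value minus its mean over the 6 arrays (vertical axis) of 5 receptors and of the summed β-cell and endothelial markers, by array, Sel1L-deficient left of the dashed line and wildtype right of it. P2ry1, Ffar1, Chrm3, Gipr and the β-cell sum lie lower on each Sel1L-deficient array than on any wildtype array, the endothelial sum lies higher, and Glp1r overlaps.

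Differences between genotypes were smaller among the few probe sets with a mean above 11. Among the 1705 genes with a mean of 7 to 8, which include Ffar1 and Gpr119, the median size of a difference was 0.11 and the largest was 2.11. The median size was 0.12 among 231 genes at 9 to 10 and 0.11 among 79 genes at 10 to 11. Among the 22 genes at 11 to 12, where Glp1r lies, the median size was 0.07 and the largest 0.49. The median standard error, which limma draws toward a common value, was 0.11 at 7 to 8 and 0.10 at 11 to 12. The median SD within groups was 0.11 at 7 to 8 and 0.08 at 11 to 12, so the spread was smaller there too. Of the 21 other genes in its range of brightness, 8 differed by less than Glp1r. How far the Glp1r difference was compressed was not measured here, and the other 7 receptors had means from 4.64 to 7.77.

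**Figure D4:**
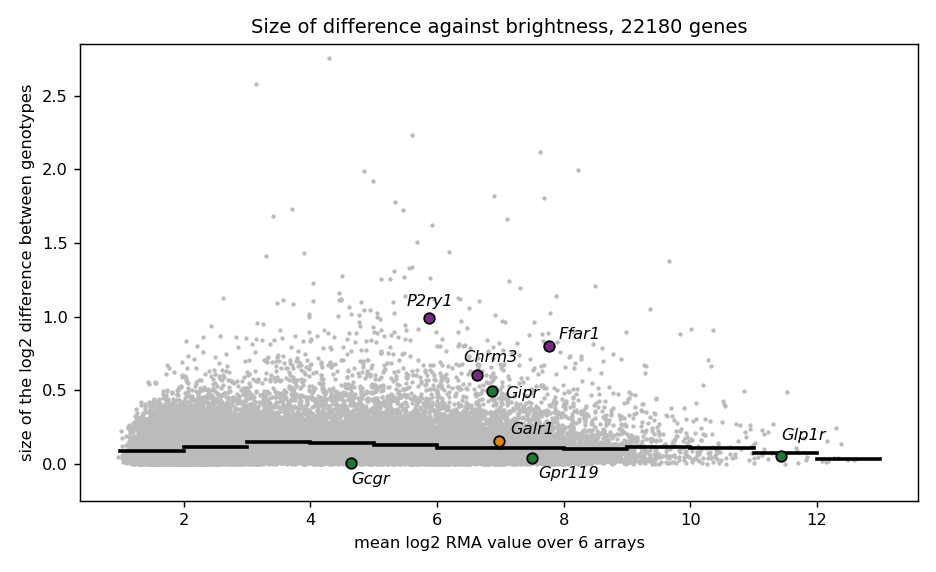
Size of the log2 difference between Sel1L-deficient and wildtype islets (vertical axis) against the mean log2 RMA value over 6 arrays (horizontal axis). Grey points are 22180 genes, black steps the median size per unit of brightness and coloured points the 8 receptors. The step at 11 to 12, where Glp1r lies, is at 0.07, against 0.11 at 7 to 8 and at 10 to 11.

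The genes most like the 3 most variable receptors were sought over the 6 arrays, by the root mean square difference of values centred on their own mean, among 11905 genes above the array medians. Since the arrays split by genotype, such genes share that split. P2ry1 was most like Scel (0.15), Tldc2 (0.16) and Ero1b (0.17), the last an oxidase of the endoplasmic reticulum, against a median of 0.57 over all candidates. Ffar1 was most like Lrrtm4 (0.08), Fkbp1b (0.10) and the acyl-CoA thioesterase gene Acot13 (0.10), against a median of 0.45. Lrrtm4 had 2 probe sets, and its difference was -0.74 on the brighter but -0.37 with the mean over probe sets. Chrm3 was most like the fructose bisphosphatase gene Tigar (0.05), Myo15b (0.05) and the phospholipase gene Plcg2 (0.06), against a median of 0.34. Of these 9 genes Ero1b passed the threshold, with a difference of -0.92 (limma, adjusted p = 0.0428). It did not pass once any 1 array was left out (limma, adjusted p from 0.0763 to 0.208) or with the replicate block (0.0559).

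The genes around the receptors were counted in 8 lists of 128 genes, 115 of them measured. In all 1 passed the threshold, beside 0.243% of all genes. At an unadjusted p under 0.05 the share of all genes was 9.48%, and 15.1% had groups that did not overlap. Other subtypes of the receptor families had 23 of 30 genes measured, of which 0 rose and 0 fell, and 5 had an unadjusted p under 0.05. Their median difference was 0.06, where that of all genes was 0.00044. The 2 with the smallest p were receptors for short-chain fatty acids, and they lay on opposite sides. Ffar3 read 4.58, 4.35 and 4.45 in Sel1L-deficient islets and 5.38, 5.59 and 4.92 in wildtype islets, a difference of -0.83 (limma, adjusted p = 0.174). Ffar2 read 5.44, 5.57 and 5.22 in Sel1L-deficient islets and 5.05, 4.71 and 4.70 in wildtype islets, a difference of 0.59 (limma, adjusted p = 0.23). Neither gene's groups overlapped.

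Genes that supply or break down the ligands had 1 of 15 that fell and 0 that rose, with a median of -0.12. Without Sel1L-deficient replicate 3 the median was 0.0069, with 8 genes higher and 7 lower. The gene that fell was Pcsk1, the convertase that cuts proinsulin and releases GLP-1 from proglucagon in gut cells. Pcsk1 read 8.72, 8.69 and 9.10 in Sel1L-deficient islets and 9.80, 9.78 and 10.09 in wildtype islets, and fell by 1.05 ± 0.15 (SE; limma, adjusted p = 0.041). Without any 1 array other than Sel1L-deficient replicate 3 it did not pass, with limma adjusted p from 0.127 to 0.203 and differences from -1.11 to -0.95. Gcg, the precursor of glucagon and GLP-1, differed by 0.03, near the top of the scale at 12.63 in Sel1L-deficient and 12.60 in wildtype islets.

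Genes of Gs and cyclic AMP signalling, 21 of 23 measured, had 0 that rose, 0 that fell and 2 at an unadjusted p under 0.05. Their median was 0.08, with 12 higher and 9 lower, and 0.010 without Sel1L-deficient replicate 3. The phosphodiesterase genes Pde10a and Pde4d, whose products break down cyclic AMP, differed by -0.62 and 0.37 (limma, adjusted p = 0.341 and 0.461). Genes of Gq and phospholipase C signalling, 15 of 16 measured, also had 0 that rose and 0 that fell, with 4 at an unadjusted p under 0.05 and a median of 0.13. Of these, 10 were higher and 5 lower in Sel1L-deficient islets, while the 3 Gq-linked receptors were all lower. Dgka, a kinase that removes diacylglycerol, differed by 0.47, and Plcb4, a phospholipase C, by 0.30 (limma, adjusted p = 0.249 and 0.385). Both were higher on each Sel1L-deficient array than on any wildtype array, as were 4 of the 15 genes, with 2 lower on each. Over all genes 7.22% were higher and 7.84% lower without overlap.

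Gi and Go signalling and RGS genes, 12 of 13 measured, had a median of 0.02, with 0 past the threshold and 2 at an unadjusted p under 0.05. The median was below 0 without Sel1L-deficient replicate 1 (-0.0083), Sel1L-deficient replicate 2 (-0.0090) or wildtype replicate 2 (-0.0023). The Gi subunit genes Gnai1 and Gnai3 lay on opposite sides, at 0.42 and -0.26 (limma, adjusted p = 0.475 and 0.515). Kinases and arrestins that switch receptors off, 6 of 7 measured, had a median of 0.05, with 0 past the threshold and 1 at an unadjusted p under 0.05. Their median was -0.04 without Sel1L-deficient replicate 2 and -0.0073 without wildtype replicate 1. Grk5 differed by -0.33 and Grk6 by 0.15 (limma, adjusted p = 0.462 and 0.745).

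The pathway of the prolactin receptor had 12 of 12 genes measured, with 0 past the threshold, 2 at an unadjusted p under 0.05 and a median of -0.06, which was 0.04 on the 4 arrays without replicate 3. Jak2, its kinase, differed by 0.34 and Ccnd2, a cyclin that drives β-cell division, by -0.31 (limma, adjusted p = 0.347 and 0.349). Neither gene's groups overlapped.

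Targets of CREB, the transcription factor that cyclic AMP activates, had 0 genes past the threshold (0 rose and 0 fell), and 4 at an unadjusted p under 0.05. Of 11 measured genes 9 were lower and 2 higher, with a median of -0.38, and after median centring of the arrays 10 were lower and 1 higher. Without Sel1L-deficient replicate 1 or without wildtype replicate 2, 8 were lower and 3 higher, with medians of -0.36 and -0.25. Sik1, a kinase that restrains CREB, read 6.08, 6.10 and 5.97 in Sel1L-deficient islets and 6.35, 6.56 and 6.66 in wildtype islets. Gem, a GTPase that inhibits calcium channels, read 3.70, 3.55 and 4.07 in Sel1L-deficient islets and 4.49, 4.49 and 4.22 in wildtype islets. The differences were -0.47 for Sik1 and -0.62 for Gem (limma, adjusted p = 0.243 and 0.246), with no overlap between genotypes. Fos, an immediate early gene, ranged from 5.89 to 8.09 over the Sel1L-deficient arrays and from 6.99 to 7.95 over the wildtype arrays.

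**Figure D5:**
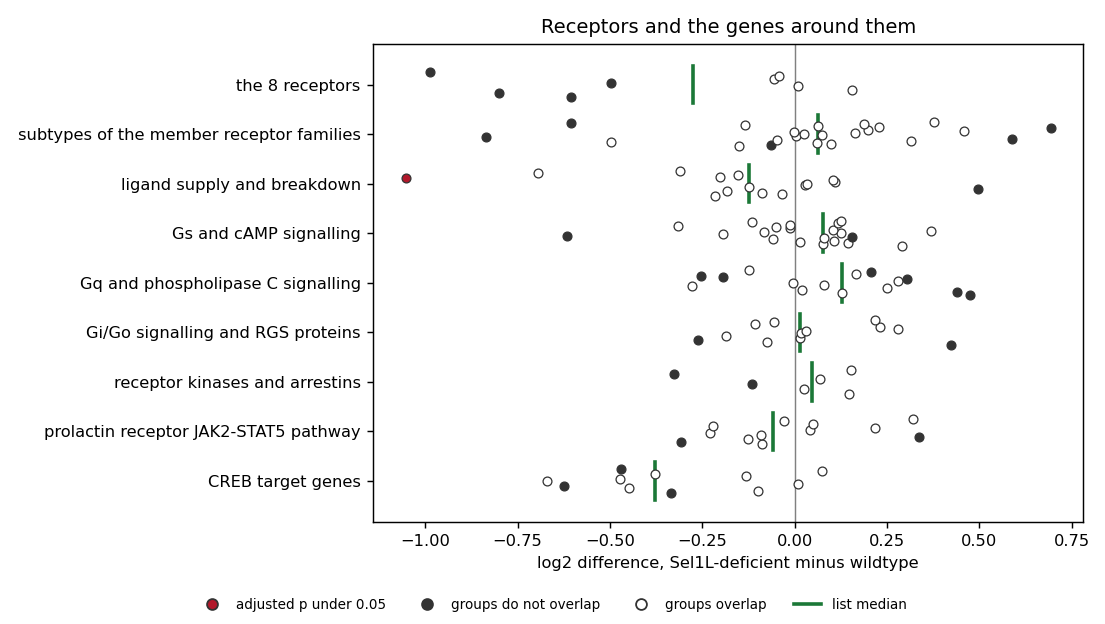
Log2 difference, Sel1L-deficient minus wildtype (horizontal axis), of each measured gene in the receptor set and in 8 lists around it. Red points passed an adjusted p of 0.05, dark points had groups that did not overlap, open points overlapped and green bars are list medians. The medians run from -0.38 for CREB targets and -0.28 for the receptors to 0.13 for Gq signalling, and the 1 red point is Pcsk1.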

How the data were processed

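Islet RNA from 3 Sel1L-deficient and 3 wildtype samples was measured on Affymetrix arrays, 1 array per sample. The authors deposited log2 values summarised by RMA, per the submitters' processing notes, which correct background, normalize between arrays and combine the probes of a probe set. Of its version, filters and log base nothing is stated (not given in the sources used here). A log2 scale was taken from the values, which lay between 0.526 and 13.0. RMA can shrink differences, and no detection call was available. Probe sets with 1 gene symbol in the platform annotation, 23521 of 41345, gave 22180 genes, each read from the brightest of its probe sets on average. Each of the 8 receptors had 1 probe set.

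Differences, Sel1L-deficient minus wildtype, were fitted in R 4.3.3 by limma 3.58.1 (functions lmFit and eBayes, two-sided), with Benjamini-Hochberg adjustment over 22180 genes and a threshold of 0.05. Errors are SD over 3 arrays or the standard error from limma. Nothing says how many animals an array held, so the p-values reflect only how far these samples varied, and the number of arrays limits the precision. The fit was tested on simulated data, where it recovered 12.9% of genes changed by 0.5 in log2, 69.8% by 1 and 96.6% by 2. Of the genes called there, 3.91% were false. A gene that differs by 0.5 to 1 can therefore fail to pass, so a missed threshold does not show that a receptor was unchanged. The receptors and lists were chosen with earlier results of these data known. From each list the text names every gene past the threshold or else the 2 with the smallest p. Gcg, Ttr and Fos were named after their values were seen. Alternatives were leaving out arrays, a replicate block, a covariate or reduced set for the sex-linked transcripts, other scaling, filtering, priors and weights, and the mean over probe sets.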

Additional observations from a re-analysis of the deposited data

How the results depend on the processing

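P2ry1, Ffar1, Chrm3 and Gipr kept a lower signal in Sel1L-deficient islets under all 15 alternatives, with differences from -1.23 to -0.84, -0.96 to -0.66, -0.67 to -0.53 and -0.61 to -0.42. The replicate block, the covariate, the filter, the prior and the mean over probe sets cannot change these differences. Leaving out arrays or weighting them cannot turn the sign where the groups do not overlap. For these 4 genes the sign could therefore turn only with other scaling. Ffar1 (-0.80) and Chrm3 (-0.60) passed the threshold with the trend and robust prior, and no receptor passed under the other 14. Gcgr turned to -0.10 on the 4 arrays left without replicate 3 and to -0.0048 after median centring, and ran from -0.069 to 0.12 when single arrays were left out. Gpr119 ran from -0.23 to 0.14, positive without Sel1L-deficient replicate 2. The cause was not tested. Genes called over all genes numbered 54, 133 with the trend and robust prior, 1 on the 4 arrays, and 4 to 29 when single arrays were left out. In the last 2 settings fewer arrays entered. The ligand list had 1 called gene, 0 on the 4 arrays and 0 to 1 when single arrays were left out. Sel1l did not pass when any 1 array was left out, on the 4 arrays or with the replicate block (limma, adjusted p from 0.0559 to 0.196), with differences from -0.97 to -0.82.

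Replicate numbers are shared by both genotypes. Deviations from the group means of same-numbered arrays correlated at 0.105, 0.072 and 0.21 over all genes, where each array correlated best with its own number. Over the genes above the highest array median the values were 0.117, 0.126 and 0.344, but Sel1L-deficient replicate 1 then correlated at 0.125 with wildtype replicate 2, above its own number. All 3 pairs exceed 0.1 over the second set of genes and 2 of 3 over all genes, so the pairing is unsettled and the fit without the block was kept. The replicate 3 arrays also share low Xist and the highest acinar sums, so their correlation cannot tell pairing from these shared features. Deviations within a group cancel, so this bears on the other pairs as well. With the replicate block 36 genes were called, 28 of them shared with the 54, and no receptor changed its call, while Sel1l and Ero1b no longer passed (limma, adjusted p = 0.0559 for each). The limma adjusted p of P2ry1 was then 0.0883. Signal near the top of the scale limits what can be said of Glp1r.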
